A study of Homo sapiens with 2 samples.

Results

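The glycosyltransferase genes described here encode the GALNT, GCNT, MGAT, B3GNT, B3GALT, B4GALT, B4GALNT, ST3GAL, ST6GAL, ST6GALNAC, ST8SIA and FUT enzymes. They were taken from the deposited expression table by gene symbol alone, with a family name followed by a number, which gave 86 of 25343 rows. The tested library came from C4-2B ENZR cells, an enzalutamide-resistant line kept in RPMI medium with serum and 20 µM enzalutamide, a drug that blocks the androgen receptor. Its counterpart was C4-2B Con, the enzalutamide-sensitive line grown alongside in the same medium with DMSO. C4-2B is a castration-resistant human prostate cancer line that descends from LNCaP through C4-2. The titles of both samples carry the ending shC, whose meaning is not stated. Each line gave 1 library, so resistance, the presence of the drug and differences between cultures cannot be told apart. No difference has a replicate check, and no p-value is given.

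Glycosyltransferases of the Golgi build sugar chains on proteins and lipids one residue at a time, each taking an activated sugar as donor. Mucin-type O-glycans start when a GALNT enzyme adds N-acetylgalactosamine to serine or threonine, which makes the Tn structure. Other enzymes then extend and branch the chain, and sialyl- and fucosyltransferases cap it. A sialic acid placed directly on Tn gives sialyl-Tn, a structure known from carcinomas, and several enzymes of the pathway are known as androgen-regulated in prostate cancer cells.

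The libraries held 23479051 reads in genes for ENZR and 21024484 for Con, and 1 read was worth 0.0404 CPM (reads per 1000000 after the authors' scaling) in ENZR and 0.0490 CPM in Con. All 7 markers of prostate luminal epithelium were present in both, at 100 to 994 CPM each in ENZR and 96.5 to 712 CPM in Con. Leukocyte markers summed to 5.30 CPM in ENZR and 3.23 CPM in Con, with CD3E at 0 reads in both. Of these sums, LYZ alone gave 5.10 CPM in ENZR and 2.94 CPM in Con. Endothelial markers summed to 4.57 CPM in ENZR and 10.5 CPM in Con, with CDH5 at 0 in both. VWF gave 2.91 CPM in ENZR and 8.92 CPM in Con, a log2 ratio (ENZR over Con, 1 CPM added to each) of -1.34. Fibroblast markers summed to 46.1 CPM in ENZR and 20.6 CPM in Con, of which COL1A1 alone gave 44.4 CPM and 18.1 CPM, while COL1A2 was at 0 in both. The part of these markers in the results was not tested. In a bulk library, fewer cells that express a gene and less RNA per cell cannot be told apart.

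Most glycosyltransferase genes were at similar levels in the resistant and the sensitive line, and 7 stood at least 2-fold apart. Of the 86 genes, 57 were measured, meaning a mean of 1 CPM or more over both libraries, and 29 lay under that minimum. With 1 CPM added to each value, the log2 ratio (ENZR over Con) had a median of 0.09 over the measured members and of -0.01 over all 13803 measured genes. A log2 ratio of 1 or more (2-fold higher) was reached by 3 members, or 5.26%, beside 6.69% of all measured genes. A log2 ratio of -1 or less (2-fold lower) was reached by 4 members, or 7.02%, beside 4.64% of all genes. Neither share differed much from that background, and 31 of the 57 (54.4%) lay within 1.25-fold, beside 50.1% of all genes. The 3 higher genes were GALNT6, GALNT3 and GALNT13, and the 4 lower were ST6GALNAC1, GALNT7, ST8SIA4 and GCNT1. By the plain ratio, without the added 1 CPM, the measured members MGAT4A, FUT9, FUT3 and B3GNT9 also lay past 2-fold.

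Each plain ratio of CPM was given an exact 95% binomial (Clopper-Pearson) interval from the read counts, called the counting interval, which covers counting error only. It lay above 1 for 21 members (36.8%), beside 34.6% of all measured genes, and below 1 for 14 members (24.6%), beside 36.6% of all genes. For the other 22 members the interval held 1. At 4-fold with 1 CPM added, all 3 higher genes still passed, beside 1.91% of all genes, and 2 of the lower ones did, beside 1.16% of all genes. By the plain ratio ST8SIA4 also passed, at 4.15 as Con over ENZR. Reads of all 86 members together summed to 2430 CPM in ENZR and 2570 CPM in Con, a ratio of 0.946 (0.935 to 0.957). With the authors' TMM scaling (trimmed mean of M-values) undone, the median over all genes shifted to 0.10 and the ratio of the summed members to 1.026. The direction of ratios this close to 1 thus rests on the scaling.

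**Figure D1:**
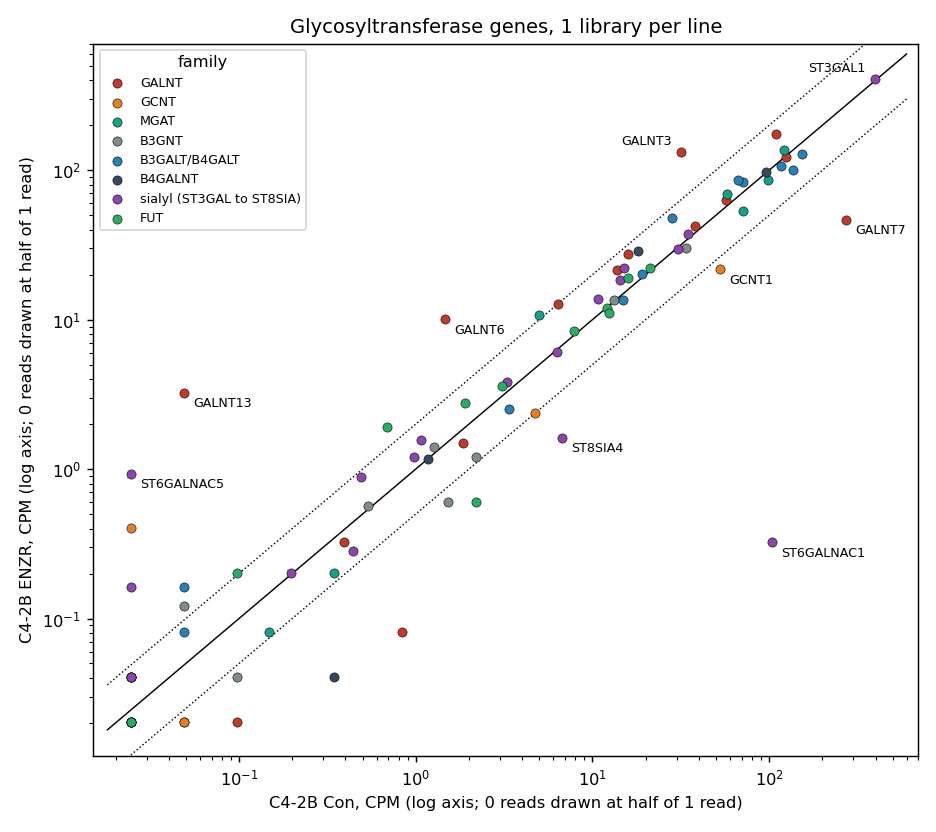
CPM of each of the 86 glycosyltransferase genes in C4-2B ENZR (vertical, log axis) against C4-2B Con (horizontal, log axis), 1 library per line, coloured by family; the solid line marks equal values, the dotted lines a 2-fold plain ratio, and 0 reads are drawn at the place the axis labels give. Most genes lie near the solid line, with GALNT3 (133 CPM in ENZR, 31.6 CPM in Con), GALNT6 and GALNT13 above it and ST6GALNAC1 (0.324 CPM in ENZR, 104 CPM in Con), GALNT7, GCNT1 and ST8SIA4 below it.

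The GALNT enzymes, which start mucin-type O-glycans, showed both the highest ratios of the set and one of the lowest. Of their 17 genes 12 were measured, with a median log2 ratio of 0.64 that was 0.14 with no filter on low values and 0.39 with neighbours' medians subtracted. Past 2-fold, 3 were higher, beside 6.69% of all genes, and 1 was lower, beside 4.64%. The counting interval lay above 1 for 9 of the 12, beside 34.6% of all genes, and below 1 for 1, beside 36.6%. GALNT3, known to glycosylate the phosphate-regulating hormone FGF23, had 133 CPM (3278 reads) in ENZR and 31.6 CPM (646 reads) in Con. Its ratio was 4.19 (3.85 to 4.56), a log2 ratio of 2.03. GALNT6, a close relative of GALNT3, had 10.0 CPM (248 reads) in ENZR and 1.47 CPM (30 reads) in Con, a ratio of 6.82 (4.66 to 10.3). GALNT13, known best from the nervous system, had 80 reads in ENZR and 1 read in Con. The ratio of 66.0 has a counting interval of 11.5 to 2640, so its size is poorly fixed.

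GALNT7 went the other way. This enzyme prefers peptides that already carry N-acetylgalactosamine, so it acts after the initiating members. It had 46.6 CPM (1152 reads) in ENZR and 274 CPM (5589 reads) in Con, a log2 ratio of -2.53. As Con over ENZR the ratio was 5.88 (5.52 to 6.27). GALNT10, which has a like preference, stood nearly equal in both lines, at 42.5 CPM in ENZR and 38.1 CPM in Con, a ratio of 1.12. The 10 measured genes nearest to GALNT7 on chromosome 4 had a median log2 ratio of -0.68, and GALNT7 stood 1.85 below that median (-1.85 after subtraction). For GALNT3 the neighbours' median was 0.37, which left 1.66.

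The promoters of GALNT7 and ST8SIA4 are shown as a pair of genes past 2-fold on the lower side, and ST6GALNAC1 and GALNT6 had no promoter window. GCNT1, also on the lower side, has several annotated starts, some with the GC box described below and some without it, and is not shown. Both printed stretches are RefSeq sequences on GRCh38.p14, 5′ to 3′ along the gene. The GALNT7 stretch is chr4:173168561-173168752 on the plus strand, 250 to 59 bases before the annotated start, and the ST8SIA4 stretch is chr5:100903283-100903532 on the minus strand, 250 to 1 bases before it. Capitals mark the GC box GGGCGG or its reverse complement CCGCCC.
GALNT7: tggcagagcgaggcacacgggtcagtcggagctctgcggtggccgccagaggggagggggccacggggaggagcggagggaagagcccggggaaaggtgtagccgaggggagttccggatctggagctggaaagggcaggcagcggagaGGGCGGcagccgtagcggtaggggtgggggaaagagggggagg
ST8SIA4: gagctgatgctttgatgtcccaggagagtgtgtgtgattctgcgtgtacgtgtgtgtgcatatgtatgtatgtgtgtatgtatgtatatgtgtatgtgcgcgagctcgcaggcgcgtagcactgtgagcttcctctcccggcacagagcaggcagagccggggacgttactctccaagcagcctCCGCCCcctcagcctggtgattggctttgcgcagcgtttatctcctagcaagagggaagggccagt
Each stretch held the GC box once. Neither held AGAACA, the half-site of androgen receptor elements, nor the TATA box TATAAA on either strand.

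Promoter windows of the 250 bases upstream were present for 60 of the 86 members. On either strand, with overlaps between motifs kept, AGAACA was found in 12.4% of all 35116 RefSeq windows, GGGCGG in 42.6% and TATAAA in 10.7%. Counted per gene, a motif was called present if any annotated start of the gene had it. Genes with more starts have more chances, and the number of starts was not adjusted for. GGGCGG preceded 90.2% of the 41 measured members with a window, 63.2% of the 19 under the minimum and 46.2% of all 27305 genes. AGAACA was found for 19.5% of the measured members, 21.1% of those under the minimum and 14.8% of all genes. TATAAA was found for 0% of the measured members, 5.26% of those under the minimum and 13.05% of all genes. The CpG ratio is the observed number over the number that base composition gives, and the start with the highest ratio was taken for each gene. Its median was 0.846 for measured members, 0.719 for those under the minimum and 0.611 for all genes. These shares describe the letters of the windows and say nothing on binding.

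The other measured GALNT genes differed less. GALNT2, a broadly expressed initiating enzyme, had 174 CPM in ENZR and 109 CPM in Con, a ratio of 1.59 (1.51 to 1.68). GALNT1, also broadly expressed, had 122 CPM in ENZR and 125 CPM in Con, and its counting interval of 0.924 to 1.027 held 1. GALNT14 had 12.7 CPM in ENZR and 6.42 CPM in Con, GALNT18 21.5 CPM in ENZR and 13.8 CPM in Con, and GALNT11 63.0 CPM in ENZR and 57.4 CPM in Con. GALNT16 was near the minimum at 1.496 CPM in ENZR and 1.86 CPM in Con. GALNT4 had 27.5 CPM in ENZR and 15.9 CPM in Con, but 93.2% of its 50-base stretches also lie in the read-through gene POC1B-GALNT4, which had 112 reads in ENZR and 0 in Con. The value of GALNT4 is uncertain for that reason. Below the minimum, GALNT12 had 2 reads in ENZR and 17 in Con, a plain ratio of Con over ENZR of 10.3 (2.44 to 91.9). GALNT15 had 8 reads in each, GALNT8 and GALNT9 had 0 in ENZR and at most 2 in Con, and GALNT5 had 0 in both.

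Summed over the family, GALNT reads were nearly equal, with a different make-up. The sum was 658 CPM in ENZR and 676 CPM in Con, a ratio of 0.973 (0.951 to 0.995) that became 1.06 with the TMM scaling undone. GALNT7 gave 7.08% of the family's reads in ENZR (exact 95% interval 6.69 to 7.49) and 40.5% in Con (39.7 to 41.3). GALNT3 gave 20.2% in ENZR (19.5 to 20.8) and 4.68% in Con (4.33 to 5.05). Without GALNT7 the sum was 611 CPM in ENZR and 402 CPM in Con, a ratio of 1.52 (1.48 to 1.56). GALNT7 was left out after its low ratio was seen, so the ratio of the rest had to be higher. Levels of different genes can be set side by side only per length of transcript. On the scale of CPM per kb of the longest annotated transcript, GALNT2 (39.1), GALNT3 (34.3) and GALNT1 (31.7) led in ENZR, while GALNT7 (63.6), GALNT1 (32.5) and GALNT2 (24.5) led in Con. With median transcript lengths GALNT1 came first in ENZR at 49.1 CPM per kb, ahead of GALNT3 and GALNT2, and GALNT7 stayed first in Con.

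**Figure D2:**
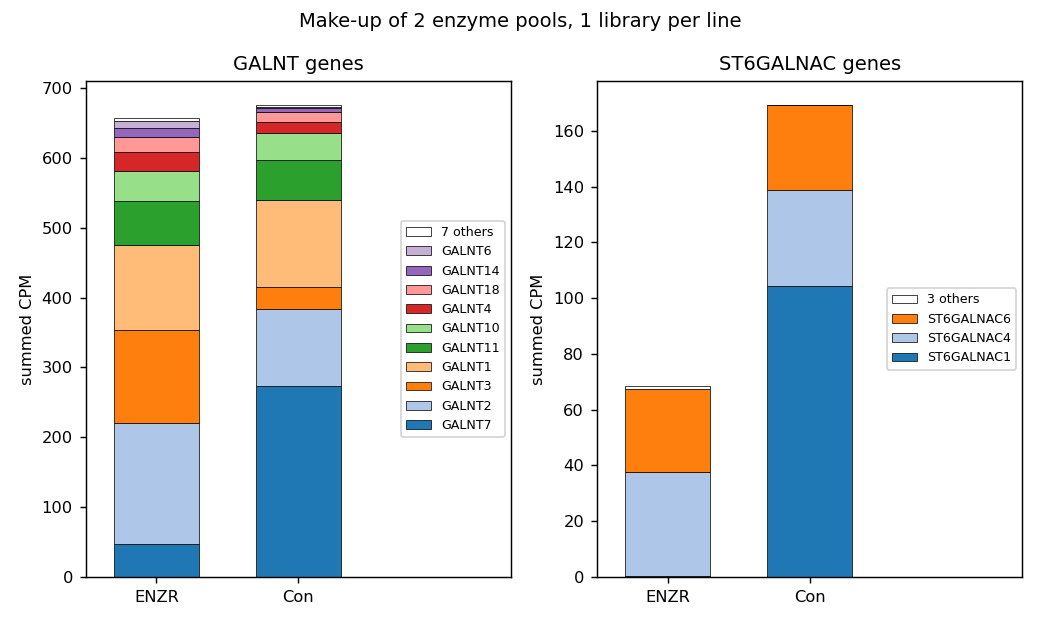
Summed CPM of the 17 GALNT genes (left) and the 6 ST6GALNAC genes (right) in ENZR and Con, 1 library per bar, with each named gene a segment and the remaining genes in white. GALNT7 and ST6GALNAC1 take a large part of the Con bars and a small part of the ENZR bars; the GALNT bars are of nearly equal height (658 CPM in ENZR, 676 CPM in Con) and the ST6GALNAC bar is lower in ENZR (68.4 CPM against 169 CPM in Con).

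Core 1 and branching enzymes act at later steps. GCNT1, which adds the branch that makes core 2 O-glycans, had 21.7 CPM (536 reads) in ENZR and 52.6 CPM (1074 reads) in Con. As Con over ENZR the ratio was 2.43 (2.19 to 2.70), a log2 ratio of -1.24. Its neighbours on chromosome 9 had a median of -0.69, and GCNT1 minus that median was -0.55, within 2-fold. GCNT2, which branches N-acetyllactosamine chains into the I antigen, had 2.39 CPM in ENZR and 4.75 CPM in Con, and its neighbours' median was -0.62. GCNT3, the mucin-type branching enzyme of gut-like epithelia, had 10 reads in ENZR and 0 in Con. With the Con library set at a floor of 3 reads it was 2.75-fold higher, a value that leaves out counting error of the ENZR reads. GCNT4 and GCNT7 had at most 1 read in either library. Outside the set, C1GALT1, which makes core 1 from Tn, had 22.8 CPM in ENZR and 10.6 CPM in Con, a ratio of 2.15 (1.83 to 2.52). Its neighbours' median was 0.48, and the log2 ratio of C1GALT1 minus that median was 0.55, within 2-fold. Its chaperone C1GALT1C1 was lower, at 20.1 CPM in ENZR and 30.9 CPM in Con.

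The MGAT enzymes, which set the antennae of N-glycans, were close to equal as a family. Their 8 genes summed to 356 CPM in ENZR and 355 CPM in Con, a ratio of 1.00. None of the 5 measured genes passed 2-fold in either direction with 1 CPM added, and their median log2 ratio was 0.18. Of all measured genes, 6.69% were 2-fold higher and 4.64% 2-fold lower, so an empty count in so small a set tells little. MGAT1, which opens the route to hybrid and complex N-glycans, had 53.1 CPM in ENZR and 71.6 CPM in Con, and its neighbours had a median log2 ratio of -0.56. MGAT5, which adds a branch often extended with N-acetyllactosamine, had 137 CPM in ENZR and 121 CPM in Con, a ratio of 1.13 (1.07 to 1.19). MGAT4A and MGAT4B encode enzymes for the same branch and differed in opposite directions. MGAT4A had 10.8 CPM in ENZR and 5.00 CPM in Con, a plain ratio of 2.16 (1.71 to 2.74). With 1 CPM added its log2 ratio of 0.98 fell just short of 2-fold. MGAT4B had 85.7 CPM in ENZR and 98.8 CPM in Con, a ratio of 0.868. MGAT2 had 68.9 CPM in ENZR and 57.8 CPM in Con, but 90.0% of its 50-base stretches are shared with an antisense gene, so its value is uncertain. MGAT3, which adds the bisecting residue, had 2 reads in ENZR and 3 in Con, MGAT5B 5 reads in ENZR and 7 in Con, and MGAT4C 1 read in ENZR and 0 in Con.

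**Figure D3:**
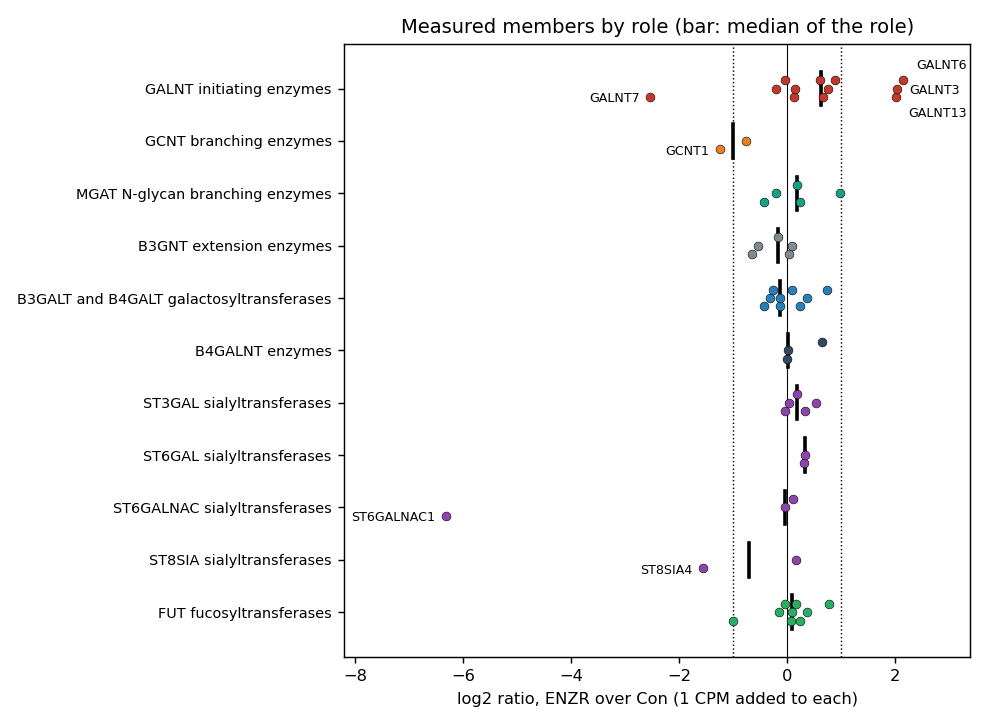
Log2 ratio of ENZR over Con (1 CPM added to each) for the 57 measured members, in rows by role, 1 point per gene and 1 library per line; the short bar is the median of the row and dotted lines mark 2-fold. The GALNT row spans the widest range apart from the row of ST6GALNAC1 (-6.31), with GALNT7 at -2.53 and GALNT6 at 2.16, while the MGAT, B3GNT, B3GALT, B4GALT, B4GALNT and FUT rows stay within 2-fold.

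None of the 5 measured B3GNT genes, which extend chains, and none of the 9 measured B3GALT and B4GALT genes, which add galactose, passed 2-fold with 1 CPM added. Of all measured genes, 6.69% were 2-fold higher and 4.64% 2-fold lower, so empty counts in sets this small tell little. The B3GNT median was -0.16 and the galactosyltransferase median -0.13. B3GNT2, the main enzyme of N-acetyllactosamine chains, had 13.6 CPM in ENZR and 13.2 CPM in Con. The row named B3GNT1 had 30.0 CPM in ENZR and 33.7 CPM in Con. That symbol is an older name of both B3GNT2 and B4GAT1, and B3GNT2 has a row of its own while no row is named B4GAT1, so which gene the row counts is uncertain. B3GNT9 had 0.607 CPM in ENZR and 1.52 CPM in Con, a plain ratio of Con over ENZR of 2.504 (1.31 to 4.99) that the added 1 CPM brings within 2-fold. B3GNT4 had 1.21 CPM in ENZR and 2.20 CPM in Con. B3GNT7, an enzyme of keratan sulfate chains, had 1.42 CPM in ENZR and 1.27 CPM in Con. B3GNT6, which makes core 3 in colon, had 14 reads in ENZR and 11 in Con, and B3GNT3, B3GNT5 and B3GNT8 had at most 3 reads in either library.

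Among the galactosyltransferases, B4GALT1, the general N-acetyllactosamine synthase, had 128 CPM in ENZR and 154 CPM in Con, a ratio of 0.833 (0.793 to 0.875). B4GALT4 had 47.7 CPM in ENZR and 28.3 CPM in Con, and its log2 ratio of 0.74 was the highest of these genes. B4GALT5, which makes lactosylceramide, had 86.5 CPM in ENZR and 67.1 CPM in Con. B3GALT6 and B4GALT7 build the linker of glycosaminoglycans, and B3GALT6 had 101 CPM in ENZR and 136 CPM in Con while B4GALT7 had 20.3 CPM in ENZR and 19.1 CPM in Con. B4GALT2 had 107 CPM in ENZR and 117 CPM in Con, and B4GALT3 84.1 CPM in ENZR and 71.1 CPM in Con. B4GALT6, a relative of B4GALT5, had 13.5 CPM in ENZR and 14.9 CPM in Con, and B3GALT4, a ganglioside enzyme, 2.51 CPM in ENZR and 3.38 CPM in Con. B3GALT5, which makes type 1 chains, had 2 reads in ENZR and 1 in Con, B3GALT1 had 4 reads in ENZR and 1 in Con, and B3GALT2 had 0 in both. The 12 genes summed to 591 CPM in ENZR and 611 CPM in Con, a ratio of 0.967 that became 1.05 with the TMM scaling undone. Of the B4GALNT enzymes, B4GALNT1, which makes the gangliosides GM2 and GD2, had 28.95 CPM in ENZR and 18.1 CPM in Con, a ratio of 1.60 (1.41 to 1.82), and its neighbours' median log2 ratio was 0.54. B4GALNT4 was at 97.8 CPM in ENZR and 96.4 CPM in Con, B4GALNT3 at 1.17 CPM in ENZR and 1.18 CPM in Con, and B4GALNT2, the Sda blood group enzyme, had 1 read in ENZR and 7 in Con.

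The lowest log2 ratio of the set belonged to ST6GALNAC1, the enzyme that places sialic acid on Tn to form sialyl-Tn. It had 0.324 CPM (8 reads) in ENZR and 104 CPM (2126 reads) in Con, a log2 ratio of -6.31. The ratio of Con over ENZR was 322 (163 to 747). None of its 50-base stretches were shared with another gene, and its neighbours had a median of 0.02. ST6GALNAC4, which adds a second sialic acid to sialylated core 1, had 37.4 CPM in ENZR and 34.6 CPM in Con, with an interval of 0.978 to 1.19 that held 1. ST6GALNAC6, which acts on gangliosides and Lewis-type chains, had 29.5 CPM in ENZR and 30.4 CPM in Con, but 97.4% of its 50-base stretches lie in a read-through gene, so its value is uncertain. ST6GALNAC5, a brain-type ganglioside enzyme, had 23 reads in ENZR and 0 in Con. With Con set at the floor of 3 reads it was 6.33-fold higher, a value that leaves out counting error of the ENZR reads. ST6GALNAC2 had 5 reads in ENZR and 4 in Con, and ST6GALNAC3 had 0 in both.

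ST6GALNAC1 accounted for the difference in the sum of its family. The 6 genes summed to 68.4 CPM in ENZR and 169 CPM in Con, a ratio of 0.404 (0.381 to 0.428). ST6GALNAC1 gave 0.473% of these reads in ENZR (0.205 to 0.930) and 61.5% in Con (59.9 to 63.1). Without it the sums were 68.1 CPM in ENZR and 65.2 CPM in Con, a ratio of 1.04 (0.971 to 1.12). ST6GALNAC1 was left out after its low ratio was seen, so here too the ratio had to be higher. The median log2 ratio of the 3 measured genes was -0.04, and it turned to 0.07 without TMM scaling and to 0.01 with upper quartile scaling. On the scale of CPM per kb, ST6GALNAC1 stood at 0.126 in ENZR and 40.5 in Con.

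ST3GAL1, which sialylates core 1, had the highest CPM of the sialyltransferases in both lines. It had 406 CPM (10032 reads) in ENZR and 396 CPM (8080 reads) in Con, a ratio of 1.02 (0.995 to 1.06). It made up 74.6% of all sialyltransferase reads in ENZR and 63.4% in Con, and per kb it stood at 58.4 CPM in ENZR and 56.9 CPM in Con. ST3GAL4, which acts on N-acetyllactosamine ends, had 22.2 CPM in ENZR and 15.04 CPM in Con, a ratio of 1.48 (1.28 to 1.70). ST3GAL2 had 13.8 CPM in ENZR and 10.7 CPM in Con, and ST3GAL5, the GM3 synthase, 3.84 CPM in ENZR and 3.28 CPM in Con. ST3GAL3 was at 6.11 CPM in ENZR and 6.27 CPM in Con, with 74.1% of its 50-base stretches shared with another gene. ST6GAL1, the main sialyltransferase of N-glycans, had 18.3 CPM in ENZR and 14.3 CPM in Con, a ratio of 1.28 (1.11 to 1.49). ST6GAL2 had 1.58 CPM in ENZR and 1.08 CPM in Con, and ST3GAL6, under the minimum, had 22 reads in ENZR and 10 in Con.

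The ST8SIA enzymes build chains of sialic acid on sialic acid. ST8SIA4, a polysialyltransferase that acts on the adhesion molecule NCAM, had 1.62 CPM (40 reads) in ENZR and 6.71 CPM (137 reads) in Con. As Con over ENZR the ratio was 4.15 (2.90 to 6.06), a log2 ratio of -1.56. ST8SIA2, the other polysialyltransferase, had 4 reads in ENZR and 0 in Con, and ST8SIA1, the GD3 synthase, had 1.21 CPM in ENZR and 0.980 CPM in Con. ST8SIA5 had 7 reads in ENZR and 9 in Con, ST8SIA6 had 1 read in ENZR and 0 in Con, and ST8SIA3 had 0 in both. All 20 sialyltransferase genes summed to 544 CPM in ENZR and 624 CPM in Con, a ratio of 0.871. Without ST6GALNAC1, again left out with its value known, the ratio was 1.05 (1.02 to 1.07).

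Fucosyltransferase genes were near equal in sum, and none of the 9 measured genes passed 2-fold with 1 CPM added. Of all measured genes, 6.69% were 2-fold higher and 4.64% 2-fold lower, so an empty count in so small a set tells little. By the plain ratio FUT9 and FUT3 lay past 2-fold. Their sums were 81.7 CPM in ENZR and 77.5 CPM in Con, a ratio of 1.05, and the median log2 ratio was 0.09. FUT8, the only enzyme of core fucosylation of N-glycans, had 22.2 CPM in ENZR and 21.1 CPM in Con, with an interval of 0.923 to 1.19 that held 1. FUT1, the H blood group enzyme, had 11.9 CPM in ENZR and 12.1 CPM in Con, and FUT2, the secretor enzyme, 3.60 CPM in ENZR and 3.09 CPM in Con. FUT4, which makes the Lewis x structure, had 8.41 CPM in ENZR and 7.84 CPM in Con. FUT11 was at 19.0 CPM in ENZR and 15.9 CPM in Con, and FUT10 at 11.2 CPM in ENZR and 12.4 CPM in Con. FUT9, another Lewis x enzyme, was low at 1.90 CPM in ENZR and 0.686 CPM in Con, a ratio of 2.77 (1.4998 to 5.45) whose log2 value with the pseudocount was 0.78. FUT3, the Lewis blood group enzyme, had 15 reads in ENZR and 45 in Con, a plain ratio of Con over ENZR of 3.63 (1.99 to 7.02). With 1 CPM added its log2 ratio of -0.996 fell just short of 2-fold. FUT6 had 2.75 CPM in ENZR and 1.91 CPM in Con, and FUT5 had 0 reads in both. Values of FUT3, FUT5 and FUT6 are uncertain because 50-base stretches are shared with other genes, 17.8% of FUT3, 82.2% of FUT5 and 13.6% of FUT6. Those of FUT5 lie in a protein-coding gene that overlaps it on the same strand. FUT3 shares 15.5% of its stretches with that gene, and FUT6 shares 10.5% with FUT3. Shared stretches also made up 24.6% of FUT11 and 57.9% of FUT7, and, among genes above, 21.2% of GALNT2 and 21.0% of B4GALT3, which limits those values too. FUT7, which completes sialyl Lewis x in leukocytes, had 5 reads in ENZR and 2 in Con.

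Genes outside the set were also read, namely those of sugar donors, of other enzymes, and of proteins that carry or bind glycans. The last group has 14 carrier genes (7 measured) and 12 lectin genes (3 measured), none past 2-fold, so it lowers the shares given next. Of 85 rows outside the set, 62 were measured, 4 (6.45%) passed 2-fold on the higher side and 2 (3.23%) on the lower side, shares close to or under the background of all genes. Their median log2 ratio was 0.12. UAP1, which makes UDP-N-acetylglucosamine, had 187 CPM in ENZR and 406 CPM in Con, and as Con over ENZR the ratio was 2.17 (2.09 to 2.25), a log2 ratio of -1.11 that was within 2-fold with the TMM scaling undone. Earlier steps of that route did not pass 2-fold: GNPNAT1 had 116 CPM in ENZR and 205 CPM in Con, and PGM3 35.95 CPM in ENZR and 62.0 CPM in Con, with a neighbours' median log2 ratio of -0.46 for PGM3. GFPT1, the entry enzyme, was at 141 CPM in ENZR and 125 CPM in Con.

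Of the sialic acid supply genes, none passed 2-fold, beside 6.69% of all measured genes on the higher side and 4.64% on the lower. NANS, which makes the phosphorylated sialic acid, had 62.8 CPM in ENZR and 122 CPM in Con, 1.95-fold lower (1.83 to 2.08), and its log2 ratio of -0.95 became -0.45 with its neighbours' median subtracted. GNE, the entry enzyme, had 5.01 CPM in ENZR and 2.94 CPM in Con, and CMAS, which makes CMP-sialic acid, 96.9 CPM in ENZR and 67.0 CPM in Con, and the log2 ratio of CMAS turned to -0.12 with its neighbours' median of 0.64 subtracted. Among fucose genes, GMDS had 19.65 CPM in ENZR and 27.04 CPM in Con. The Golgi GDP-fucose transporter SLC35C1 had 64.4 CPM in ENZR and 31.4 CPM in Con, a log2 ratio of 1.01, and its 10 neighbours had a median of 1.05. Of the other genes past 2-fold, A4GALT, which makes the Gb3 lipid, had 58 reads in ENZR and 9 in Con, and MAN1C1, an N-glycan mannosidase, had 7.12 CPM in ENZR and 2.94 CPM in Con. B3GALTL, which extends O-fucose, had 12.9 CPM in ENZR and 28.8 CPM in Con, and its neighbours on chromosome 13 had a median of -0.72.

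**Figure D4:**
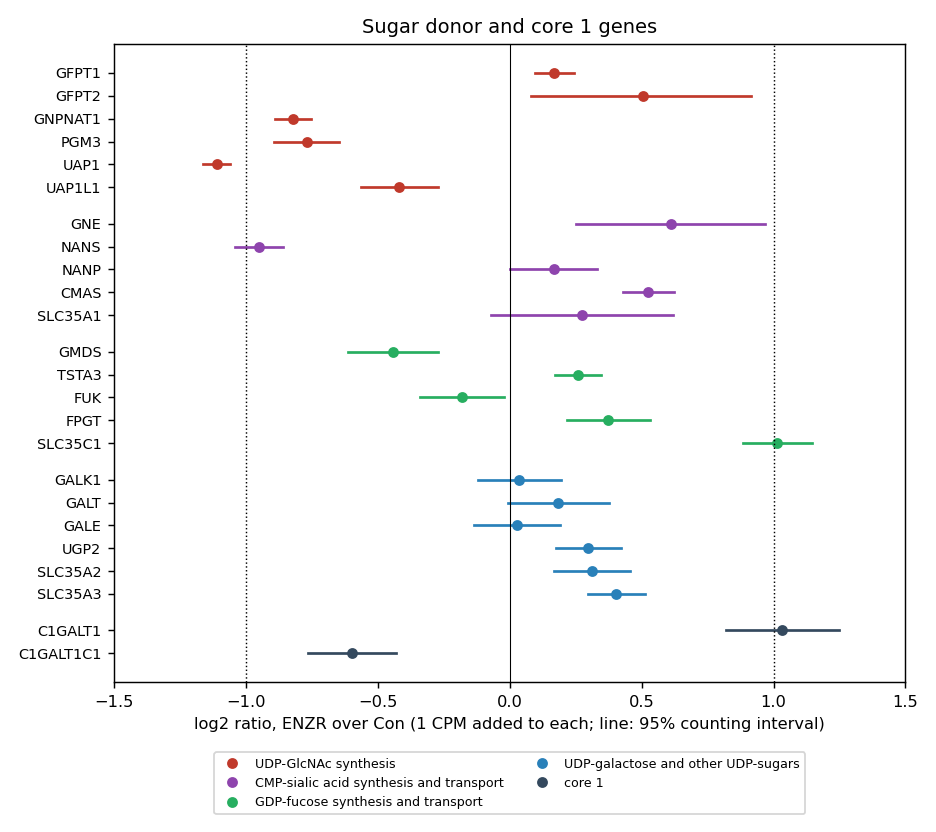
Log2 ratio of ENZR over Con (1 CPM added to each) for genes of sugar donor supply and core 1, 1 library per line; each horizontal line is the 95% counting interval and dotted lines mark 2-fold. UAP1 (187 CPM in ENZR, 406 CPM in Con) lies below and C1GALT1 (22.8 CPM in ENZR, 10.6 CPM in Con) above, with GNPNAT1, PGM3 and NANS short of 2-fold on the lower side.

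A list of glycosylation genes known as androgen-regulated in prostate cancer cells held 8 genes, all measured. It includes GALNT7, GCNT1, ST6GALNAC1, ST6GAL1, UAP1 and PGM3, whose values are given above, and was chosen with results of these data known. Of the 8, 4 were at least 2-fold lower in ENZR (GALNT7, GCNT1, ST6GALNAC1 and UAP1), beside 4.64% of all measured genes, and 0 were 2-fold higher, beside 6.69%. Since the list was chosen with the values known, nothing is read from these counts. GCNT1 lost 2-fold with its neighbours' median subtracted (-0.55), and UAP1 lost it with the TMM scaling undone. The median was -0.94. CSGALNACT1, which starts chondroitin sulfate chains, had 3.60 CPM in ENZR and 5.59 CPM in Con. EDEM3, which trims mannose from misfolded glycoproteins, had 73.5 CPM in ENZR and 67.1 CPM in Con and with ST6GAL1 was on the higher side.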

How the data were processed

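The deposited table gave 1 value per gene for each of the 2 libraries, short single reads of total RNA. Per the labels, the column names match the sample titles. The deposited values are a signal described by the authors as TMM-normalized CPM, and all of them (100% in each library) are whole multiples of 1 read within 0.01 reads, so whole reads were recovered. Tools named in the submitters' processing notes are edgeR, RSEM 1.2.15 and Bowtie2 2.1.0, with the build hg19. Which annotation was counted, and whether by strand, is not given in the sources used here, and RSEM shares out reads that fit several genes, so the whole reads may be rounded estimates. With 1 library per group a count test has no residual degrees of freedom and was not run.

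The log2 ratio used a pseudocount of 1 CPM, which understates the change of low genes, and a minimum mean of 1 CPM. Counting intervals were exact Clopper-Pearson intervals at 95% and a library with 0 reads was set at a floor of 3 counts. Neighbours were the 10 nearest measured genes in RefSeq order on GRCh38.p14, a build other than hg19, used only for names, order and promoter sequence. Transcript lengths and shared 50-base stretches came from GENCODE 29. Members, lists and rules were chosen with earlier results of these data known. Named genes were every measured member past 2-fold, low members with 20 reads or more and a clear ratio, the member with the highest mean CPM in each role, which is not always the highest per kb,, the androgen-regulated list and pathway genes past 2-fold; other members are given to account for the set. The calculation was tested on simulated data with Python 3.11.15, numpy 2.4.6, scipy 1.17.1 and pandas 2.3.3; figures used matplotlib 3.10.9. Pseudocount, filter, scaling, abundant genes, neighbours and repeated symbols were varied.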

Additional observations from a re-analysis of the deposited data

How the results depend on the processing

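The ratio of a single gene cannot change with the filters on low values or with repeated symbols summed, so those settings are no check on it. A filter at a mean of 5 CPM would drop GALNT13 (mean 1.64 CPM) and ST8SIA4 (mean 4.16 CPM), which are counted under it all the same. Over 10 settings, with the main one and these among them, GALNT3, GALNT6, GALNT7 and ST6GALNAC1 stayed past 2-fold in all 10. GALNT13 did so in 9, with a log2 ratio of 0.71 at a pseudocount of 5 CPM, as did ST8SIA4 (-0.82 at 5 CPM) and GCNT1 (-0.55 with the neighbours' median subtracted). The number of members at least 2-fold higher was 3, and 5 with a pseudocount of 0.25 CPM. Among pathway genes outside the set, 4 were at least 2-fold higher, against 0 with a pseudocount of 5 CPM and 2 with neighbours subtracted; of those 2, A4GALT (1.13) was among the 4 and MAN1B1 (1.58) was not. The number at least 2-fold lower was 2, against 1 with 5 CPM, 0 with the TMM scaling undone, 0 with the 10 most abundant genes left out and 1 with neighbours subtracted. The pathway and role group settings were added after seeing the data, and the causes were not tested. The members' median of 0.09 ranged between 0.06 and 0.20. With no filter the medians of the MGAT (-0.01), B3GNT (0.03), B3GALT and B4GALT (0.04), ST6GALNAC (0.01) and ST8SIA (0.06) groups crossed 0. With neighbours subtracted those of B3GALT and B4GALT (0.11), B4GALNT (-0.36) and ST6GALNAC (0.42) did. No direction of a named member changed except B4GALNT4 (-0.36 with neighbours subtracted). Depth limits the genes with few reads, such as GALNT13 and ST6GALNAC5. No paired analysis was possible because each group has 1 library.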

Other observations

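Genes of proteins that carry or read these glycans were among the 85 rows outside the set. Of 14 mucin and selectin-ligand carrier genes with a row, 7 were measured, with a median log2 ratio of -0.06. Of these, 0 passed 2-fold in either direction, beside 6.69% of all measured genes higher and 4.64% lower, so the count tells little. MUC1, an epithelial mucin, had 5.54 CPM in ENZR and 5.83 CPM in Con. PODXL, a sialylated surface mucin, had 80.8 CPM in ENZR and 103 CPM in Con, and GLG1, a Golgi glycoprotein, 176 CPM in ENZR and 182 CPM in Con. Of 12 lectin genes 3 were measured, and LGALS8, a galectin, had 62.6 CPM in ENZR and 36.7 CPM in Con, a ratio of 1.71 (1.56 to 1.86). Among sialidases, NEU1 of the lysosome had 37.9 CPM in ENZR and 32.8 CPM in Con, and NEU3 of the plasma membrane had 25.3 CPM in ENZR and 15.4 CPM in Con, a ratio of 1.64.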
